A study of Mus musculus with 4 samples.

Results

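The 39 genes of the mouse Hoxa, Hoxb, Hoxc and Hoxd clusters were followed in nuclei of kidney tissue enriched for medulla. They were chosen by symbol alone, as Hox followed by a cluster letter and a paralog number, and took 40 of the 31053 rows counted because Hoxd4 was listed under 2 identifiers, both without a count. Single-nucleus RNA-seq was performed on kidneys of 12-week-old male mice, 1 library per mouse. A slice from the middle of the kidney was trimmed of cortex to enrich medullary cells. The 2 knockout mice carried Hoxb7Cre and floxed Tfap2a alleles on both chromosomes (Hoxb7Cre+;Tfap2a fl/fl), and the 2 control mice were Cre-negative littermates with the same floxed alleles (Tfap2a fl/fl). Hoxb7Cre is a transgene in which Hoxb7 regulatory sequence drives the recombinase in the collecting duct and the lower urinary tract epithelium, and Tfap2a, which encodes the transcription factor AP-2 alpha, is thereby deleted there from development on.

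Hox proteins are homeodomain transcription factors that give cells their position along the body axis. Their genes lie in clusters in the order in which they are switched on, and genes at the same place in different clusters, the paralogs, carry the same number. In the embryonic kidney the ureteric bud forms the collecting duct and the metanephric mesenchyme forms the nephron and the interstitium, and the paralogs of group 11 are required in the mesenchyme for the bud to grow out and branch. Hoxb7 marks the ureteric lineage, and its regulatory sequence is widely used to direct transgenes there.

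The libraries held 22179410 to 44964099 unique molecular identifiers (UMIs, each marking 1 RNA molecule), and 27343 nuclei were kept, 5430 to 7998 per mouse, with a median of 2506 to 2797 UMIs per nucleus. Between 7 and 18 barcodes were shared by each pair of libraries. Clusters were made without Hox genes and named from markers, which put 25178 nuclei into 12 classes and left 2165 outside. The proximal tubule, a segment of the cortex and outer stripe, gave 13803 nuclei and podocytes of the glomeruli 114, so the trimmed slices still held cortex. Of the 2165 nuclei outside the classes, 1035 lay in clusters with the marks of damaged nuclei, which made up 0.405% to 8.07% of the nuclei of a mouse. In collecting duct principal cells, the targeted gene Tfap2a gave 56.6 and 98.3 counts per 1000000 UMIs (CPM) in control mice 1 and 2 and 66.0 and 106 in knockout mice 1 and 2, and since a 3' kit counts the end of the transcript, beyond the floxed exons 5 and 6, this level does not check the labels.

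Of the 39 genes, 27 had at least 1 UMI in the kept nuclei and 19 had at least 100. Together they gave 46465 UMIs, or 593 CPM, and 70.8% of the nuclei held at least 1. The Hoxb cluster gave 56.8% of these UMIs, Hoxa 26.2%, Hoxd 12.0% and Hoxc 5.01%. Hoxb6 had the most, with 6862 UMIs, followed by Hoxa9 with 5571, Hoxb3 with 4327 and Hoxa7 with 4325. Another 8 members had fewer than 100 UMIs, among them Hoxc10 with 33, Hoxa11 with 26, Hoxc11 with 26 and Hoxd1 with 5. The remaining 12 (Hoxa3, Hoxa4, Hoxa5, Hoxa6, Hoxb13, Hoxc6, Hoxc8, Hoxc9, Hoxc12, Hoxd4, Hoxd12 and Hoxd13) were listed at 0, which allows up to 3 UMIs in all, or 0.0383 CPM. Of these, 4 lie inside the RefSeq span of another Hox gene: Hoxa4, Hoxa5 and Hoxa6 inside Hoxa3, and Hoxd4 inside Hoxd3. How reads of overlapping genes were assigned was not tested, so a 0 at these members does not show that the gene was silent. Hoxb4 lies inside Hoxb3 and was nevertheless counted, with 3748 UMIs.

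The clusters lie on different chromosomes of the build GRCm38.p6 (mm10). The Hoxa genes span chr6:52155367-52260880, and 7 of 11 had a UMI. The Hoxb genes span chr11:96194316-96368254, and 9 of 10 had one. The Hoxc genes span chr15:102921131-103036856 with 5 of 9 counted, and the Hoxd genes span chr2:74668225-74765142 with 6 of 9. In each cluster the genes with the highest paralog numbers, 12 and 13, had 0 to 2 UMIs.

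Levels are given in CPM, the UMIs of a gene relative to all UMIs of the nuclei of that class in 1 mouse, and per-mouse values always in the order control 1, control 2, knockout 1, knockout 2. The summed Hox level was highest in the thin limb, at 1612 ± 136 CPM (SD, n = 4 mice), and lowest in immune nuclei, at 159, with a range of 58.2 to 267.2. Distal convoluted tubule (1258), connecting tubule (1067), principal cells (1067) and thick ascending limb (920) followed the thin limb. Below them came interstitial cells (804), intercalated cells (744), pelvic epithelium (689), podocytes (476), endothelial cells (454) and proximal tubule (367). Neighbours in this order had separate ranges over the 4 mice only between principal cells and thick ascending limb, between endothelial cells and proximal tubule, and between proximal tubule and immune nuclei. The other neighbours did not differ beyond their spread.

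**Figure D1:**
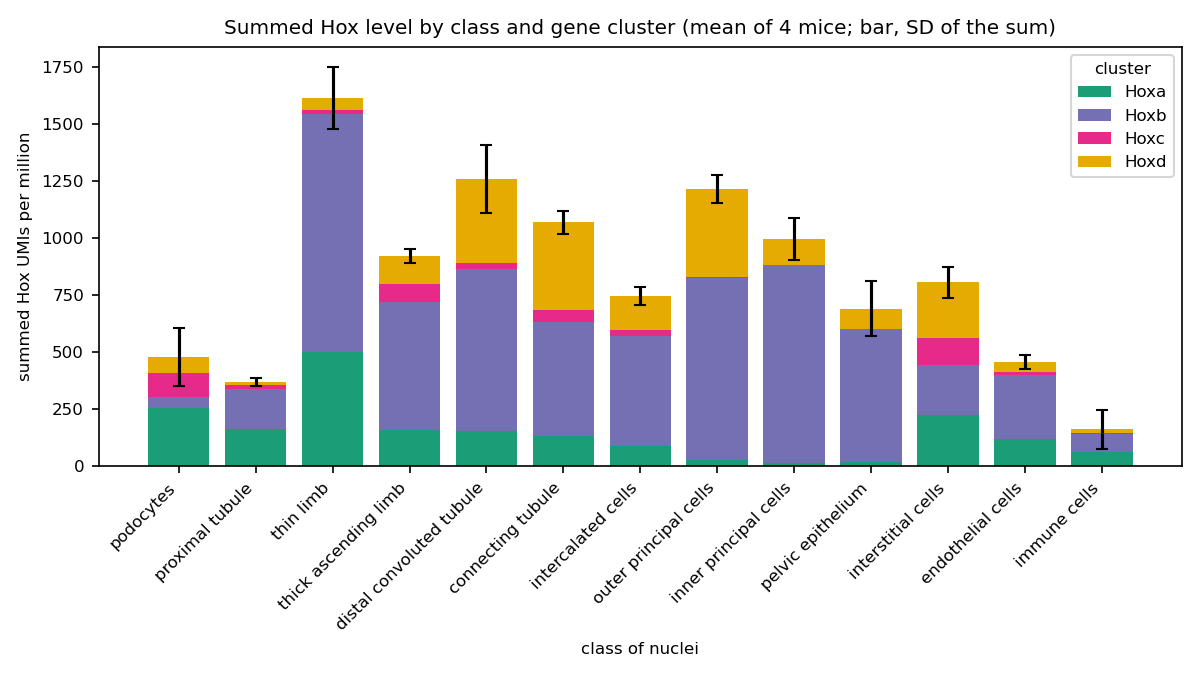
Summed Hox CPM (vertical axis) in each class of nuclei, stacked by gene cluster, as the mean of 4 mice with the SD of the sum. The thin limb reached 1612 and immune nuclei 159, and the Hoxb part stood at 1046 in the thin limb and at 795 and 869 in outer and inner principal cells.

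RNA from broken cells floats in the droplets and adds UMIs to every nucleus, and barcodes with under 100 UMIs held Hox genes at 573 CPM. To set classes of different depth side by side, each nucleus was thinned to 1000 UMIs. A Hox UMI was then found in 80.1% of thin limb nuclei, 64.1% of principal cells, 30.01% of proximal tubule nuclei and 11.8% of immune nuclei. Without thinning the shares were 93.8%, 94.3%, 65.0% and 20%, at median depths of 2143, 3652, 3191 and 1314 UMIs. Immune nuclei were taken as the background, and every other class lay above them.

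The share of the clusters differed by class. In principal cells, 1.22% to 1.82% of Hox UMIs came from Hoxa genes and 72.7% to 80.9% from Hoxb genes, over the 4 mice. In the proximal tubule, Hoxa gave 42.3% to 45.6% and Hoxb 45.1% to 51.0%, so the 2 ranges for Hoxa did not overlap. Hoxd genes gave 30.5% to 40.8% in the connecting tubule and 27.9% to 31.4% in the distal convoluted tubule, against 2.14% to 4.24% in the proximal tubule. Hoxc genes gave 15.2% to 30% in podocytes and 6.85% to 19.3% in interstitial cells, and 0.12% to 0.28% in principal cells.

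Paralog position was read from the same UMIs. Averaged over Hox UMIs, the mean paralog number was 6.04 in endothelial cells, 6.21 in thick ascending limb, 6.23 in principal cells, 6.58 in proximal tubule and 6.68 in thin limb. Podocytes reached 7.16, with a range of 6.94 to 7.41, and interstitial cells 7.65, with a range of 7.32 to 8.20. The range in interstitial cells overlapped that of podocytes and lay above that of every other epithelial class, among which the highest value in a mouse was 6.97, in intercalated cells.

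**Figure D2:**
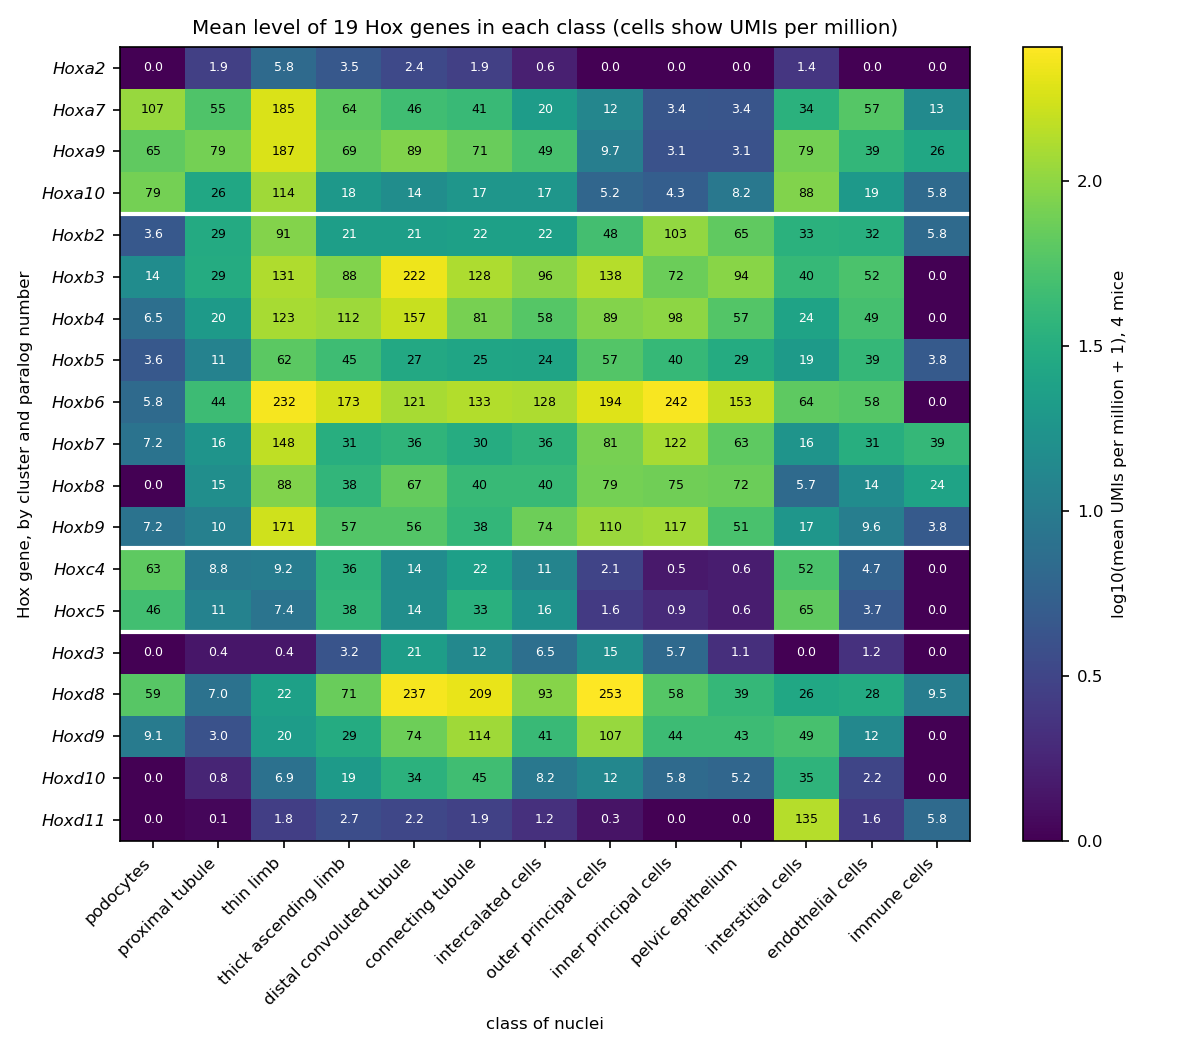
Mean CPM over 4 mice (printed in each cell, colour on a log10 scale after adding 1) of the 19 Hox genes with at least 100 UMIs, by cluster and paralog number (rows) in each class (columns). Hoxa7 and Hoxa9 fall from 184.9 and 186.6 in the thin limb to 3.4 and 3.1 in inner principal cells, and Hoxd11 stands at 134.8 in interstitial cells.

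The Hoxa genes of groups 7, 9 and 10 were higher in nephron segments than in principal cells. Hoxa9 was found at 166, 208, 163 and 209 CPM in the thin limb. In the proximal tubule it stood at 79.0, 82.1, 69.8 and 85.4. In principal cells it stood at 5.80, 5.29, 3.88 and 6.73, below every value in the nephron segments. Intercalated cells, the acid-base cells of the collecting duct, lay between, at 41.1, 33.9, 76.9 and 45.5. Hoxa7 followed the same order, with 180, 166, 167 and 227 in the thin limb and 7.98, 6.87, 6.79 and 2.69 in principal cells. Hoxa10 stood at 135, 78.8, 114 and 129 in the thin limb and at 4.35, 5.29, 3.88 and 4.04 in principal cells. Its means in proximal tubule, thick ascending limb and distal convoluted tubule were only 26.3, 18.3 and 14.2, below its level in free RNA. Interstitial cells (88.0) and podocytes (79.0) lay above those segments. These 3 genes were also present in free RNA, Hoxa7 at 62.2 CPM, Hoxa9 at 46.4 and Hoxa10 at 31.6. With estimated free RNA subtracted, the mean in principal cells was 1.32 for Hoxa7, 1.63 for Hoxa9 and 1.76 for Hoxa10, with 0 in at least 1 mouse for each.

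The Hoxd genes of groups 8 and 9 went the other way, high in the distal convoluted tubule, the connecting tubule and the outer part of the collecting duct. Hoxd8 stood at 189, 265, 258 and 235 CPM in the distal convoluted tubule and at 184, 236, 235 and 179 in the connecting tubule. In the proximal tubule it was 8.89, 4.67, 9.14 and 5.47, so the ranges did not overlap. Hoxd9 stood at 105, 107, 144 and 101 in the connecting tubule, and its mean in the proximal tubule was 3.0. Hoxd3 was lower throughout, at 15.4, 25.2, 14.7 and 27.6 in the distal convoluted tubule and 5.80, 8.46, 11.6 and 9.43 in principal cells. Hoxd10 had its highest mean in the connecting tubule, with 60.9, 54.6, 34.9 and 30.7.

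Promoter sequence of these opposed pairs is shown because Hoxa7 and Hoxa9 were low, and Hoxd8 and Hoxd9 high, in the same principal cells, in which AP-2 alpha is deleted in the knockout mice. RefSeq promoters of GRCm38.p6 were matched for 22 of the 39 genes, 24 promoters in all. Each line gives the 250 bases before the start site, 5′ to 3′ on the gene's strand, with matches to the AP-2 motif GCCNNNGGC, searched on both strands, in capitals. Hoxd9 lies at chr2:74697513-74697762 (plus strand), Hoxd8 at chr2:74704365-74704614 (plus strand), Hoxa7 at chr6:52218574-52218823 (minus strand) and Hoxa9 at chr6:52227371-52227620 (minus strand).
Hoxd9: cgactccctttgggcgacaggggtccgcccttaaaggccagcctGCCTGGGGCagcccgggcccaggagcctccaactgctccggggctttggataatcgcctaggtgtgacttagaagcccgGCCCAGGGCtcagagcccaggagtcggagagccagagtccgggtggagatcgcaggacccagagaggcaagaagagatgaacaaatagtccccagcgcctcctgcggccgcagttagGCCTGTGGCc
Hoxd8: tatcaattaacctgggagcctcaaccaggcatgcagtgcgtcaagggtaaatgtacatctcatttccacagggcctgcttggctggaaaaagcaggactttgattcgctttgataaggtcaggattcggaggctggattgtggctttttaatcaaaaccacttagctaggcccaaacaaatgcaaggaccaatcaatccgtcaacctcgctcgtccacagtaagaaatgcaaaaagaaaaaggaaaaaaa
Hoxa7: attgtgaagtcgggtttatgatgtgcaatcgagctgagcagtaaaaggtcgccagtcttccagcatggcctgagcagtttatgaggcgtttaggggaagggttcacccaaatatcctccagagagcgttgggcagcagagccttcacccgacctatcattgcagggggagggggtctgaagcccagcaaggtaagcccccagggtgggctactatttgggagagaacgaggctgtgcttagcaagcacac
Hoxa9: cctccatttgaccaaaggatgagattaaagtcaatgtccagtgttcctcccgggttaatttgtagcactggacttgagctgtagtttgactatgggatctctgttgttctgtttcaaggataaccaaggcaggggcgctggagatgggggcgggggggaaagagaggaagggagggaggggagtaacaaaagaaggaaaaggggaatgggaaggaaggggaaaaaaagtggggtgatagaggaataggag

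Hoxd9 held 3 AP-2 matches, whose first bases lay 206, 127 and 10 bases before the start, and the other three promoters shown held none. Among all 32851 promoters of this length, 13.7% held at least 1 match, and among the 24 Hox promoters 5 did: those of Hoxd9, Hoxd13, Hoxa5, Hoxa13 and Hoxb1. Of these, Hoxd9 alone had at least 100 UMIs. The GATA motif AGATAA was in 9.99% of all promoters and in 0 of the 24, and the PBX-HOX motif TGATNNAT was in 7.68% of all promoters and in 4 of the 24. A match shows only that these letters are present in this window.

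The Hoxb genes were expressed in nearly every epithelial class. Hoxb6 stood at 205, 236, 181 and 271 CPM in principal cells, 202, 321, 188 and 218 in the thin limb and 168, 186, 147 and 190 in the thick ascending limb. These ranges overlapped. In podocytes Hoxb6 gave 1, 0, 0 and 1 UMI, and the means of the other Hoxb genes there ran from 0 to 13.8. Hoxb3 and Hoxb4, neighbours in the cluster, had their highest means in the distal convoluted tubule. Hoxb3 stood there at 180.4, 293, 181 and 232, above every value in any other class. Hoxb4 stood there at 125, 230.2, 114 and 159, and its range overlapped that in the thin limb, 93.9 to 154. Hoxb8 stood at 110.1, 75.6, 89.8 and 76.7 in the thin limb and at 55.1, 97.8, 80.5 and 66.0 in principal cells, and these ranges overlapped too. Hoxb9 stood at 140, 96.2, 116 and 109 in principal cells and at 173, 172, 155 and 184 in the thin limb, above all values in principal cells.

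Among the named classes, Hoxb7, whose regulatory sequence drives the Cre, had its highest mean in the thin limb and not in principal cells. It stood at 153, 131, 180 and 129 CPM in the thin limb and at 111, 117, 106 and 98.3 in all principal cells, with no overlap. In the inner principal cells taken apart, described below, its range overlapped that of the thin limb. Cluster 19, 237 nuclei left outside the classes, shared several leading genes with the thin limb and gave Hoxb7 at 80.5 CPM. In a finer clustering, at resolution 0.8, a cluster of 199 nuclei with similar leading genes was named thin limb. Hoxb7 was not examined in that wider thin limb, so its rank was read under the main clustering only. The third class in order was pelvic epithelium, at 62.3, 76.6, 65.3 and 49.5. In connecting tubule, intercalated cells and thick ascending limb the means were 29.8, 35.8 and 30.9, and in the proximal tubule 16.5. Free RNA held Hoxb7 at 40.1 CPM, above these last 4 means. With free RNA subtracted, principal cells kept 115 and intercalated cells 35.6. Immune nuclei, taken as the background, had a Hoxb7 mean of 39.1, with a range of 0 to 66.8, and of 39.8 after subtraction. That background came from 105 nuclei with 23 Hox UMIs in all. Whether intercalated cells lay above it for this gene could therefore not be told.

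**Figure D3:**
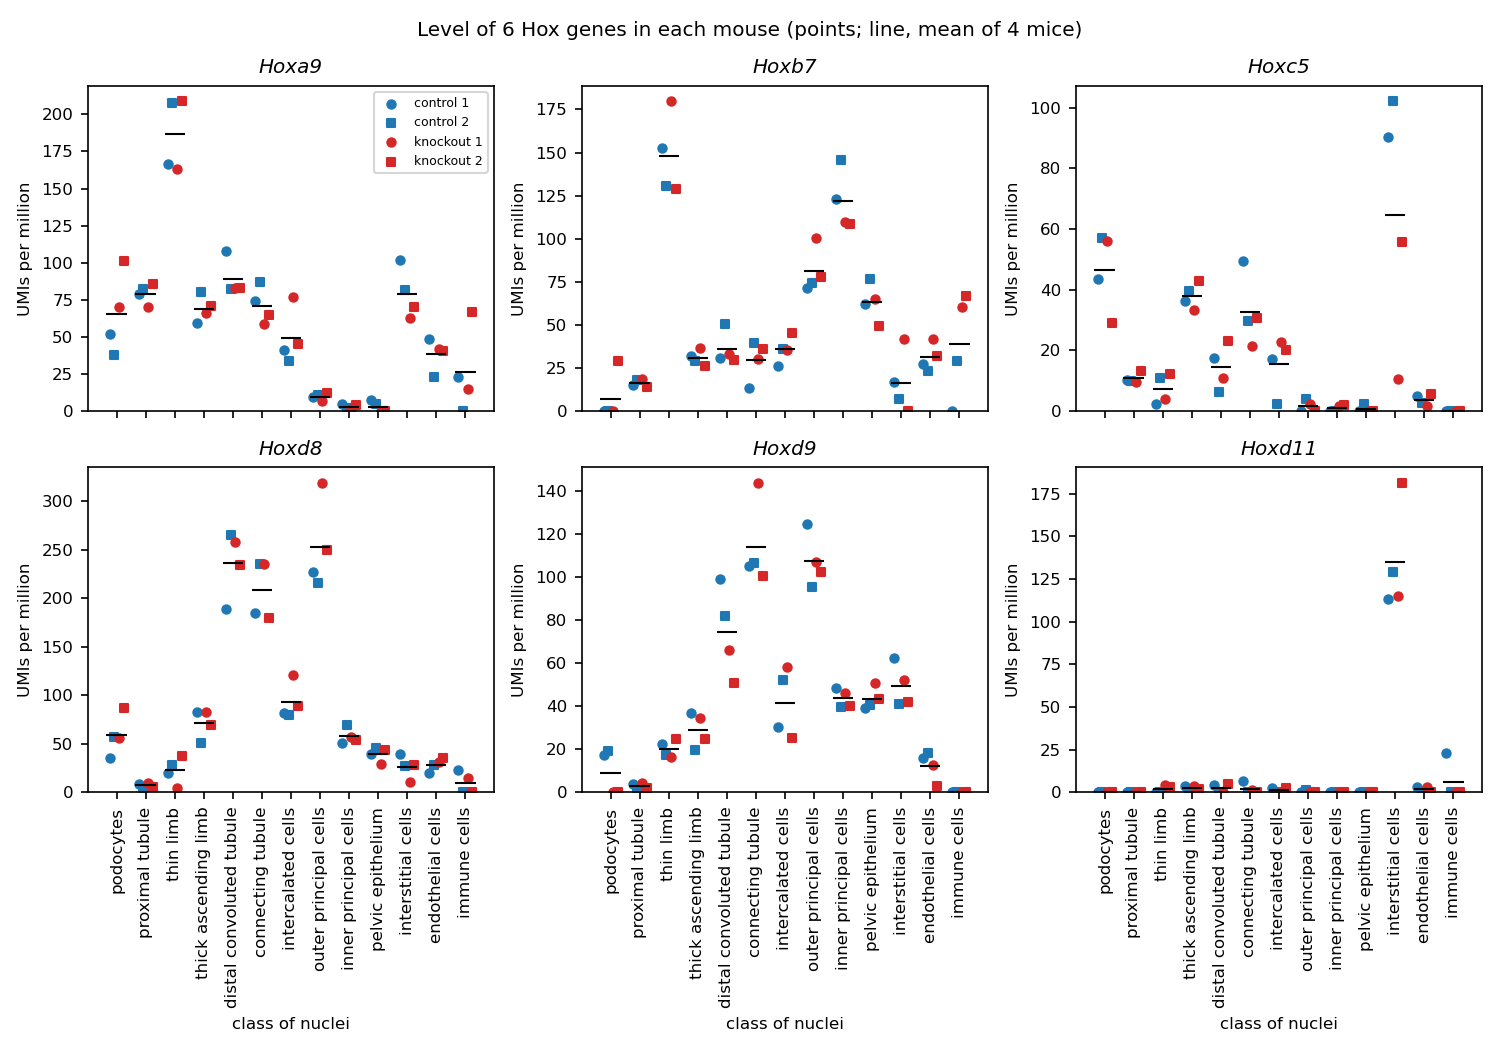
CPM of Hoxa9, Hoxb7, Hoxc5, Hoxd8, Hoxd9 and Hoxd11 in each class; each point is 1 mouse (blue, control; red, knockout; circle, replicate 1; square, replicate 2) and each line the mean of 4 mice. Hoxb7 is highest in the thin limb, at 148.0, and Hoxd11 in interstitial cells, at 134.8, and the colours are mixed in nearly every class.

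Group 11 and the Hoxc genes were found mainly outside the collecting duct. Hoxd11 stood at 113, 129, 115 and 182 CPM in interstitial cells, from 20, 19, 11 and 13 UMIs, and at 2.70 ± 1.15 (SD, n = 4) in the thick ascending limb, with no overlap. Hoxa11 was found at 17.0, 20.4, 20.9 and 14.0 in interstitial cells, from 1 to 3 UMIs per mouse, and its mean in the thin limb was 3.47. Hoxc4 stood at 56.6, 54.5, 41.9 and 55.9 in interstitial cells, 52.3, 57.1, 70.0 and 72.3 in podocytes and 42.1, 27.2, 33.3 and 40.6 in the thick ascending limb. Hoxc5 stood at 90.5, 102, 10.5 and 55.9 in interstitial cells, where knockout 1 was low. In principal cells Hoxc4 and Hoxc5 were near 0, with means of 0.919 and 1.22.

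These differences were tested on UMIs summed per mouse and lineage, with the mouse as a term, in a quasi-likelihood fit (edgeR) whose p-values were adjusted over all 19790 genes after Benjamini and Hochberg. A gene was called at an adjusted p under 0.05. Sums from the same mouse are not independent, so p-values of comparisons between cells of the same mice, here and below, can be too small. The collecting duct (principal and intercalated cells) was set against nephron epithelium, 20410 nuclei of which 13803 were proximal tubule, so that the reference is mostly proximal tubule. Connecting tubule, pelvic epithelium, podocytes and immune nuclei took no part. Of the 23 Hox genes tested, 17 were called, 11 higher and 6 lower, where 51.6% of all genes were called, 24.6% higher and 27.0% lower.

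The 11 Hox genes higher in the collecting duct were all of the Hoxb and Hoxd clusters. Hoxb7 gave 89.6, 102, 83.3 and 80.0 CPM there and 22.2, 28.1, 23.7 and 19.2 in nephron epithelium, which is 1.69 higher on the log2 scale (SE 0.15, adjusted p = 1.7e-29). Hoxd8 gave 89.6, 119, 155 and 108 against 26.1, 25.6, 26.6 and 24.5, which is 1.93 higher (SE 0.14). Hoxd9 (2.27, SE 0.17) and Hoxd3 (2.17, SE 0.38) had the largest values, and Hoxb9 (1.84), Hoxb8 (1.30, from 49.4, 89.1, 64.8 and 58.9 CPM against 21.3, 29.0, 18.6 and 20.7), Hoxb6 (1.12), Hoxb2 (0.94), Hoxb5 (0.83), Hoxb4 (0.71) and Hoxb3 (0.66) followed. All 8 Hoxb genes tested were thus higher. Their order ran with paralog number from Hoxb6 to Hoxb9 except that Hoxb8 lay below Hoxb7.

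The 6 genes lower in the collecting duct were of the Hoxa and Hoxc clusters. Hoxa7 gave 9.23, 8.57, 13.9 and 9.67 CPM there and 56.5, 55.9, 61.8 and 64.5 in nephron epithelium, a log2 fold change of -2.79 (SE 0.19, adjusted p = 2.4e-45). Hoxa9 gave 14.7, 10.7, 27.1 and 20.2 against 78.9, 88.7, 71.2 and 85.2, which is -2.47 on the log2 scale (SE 0.17). Hoxc4 (-2.12), Hoxa10 (-2.02) and Hoxc5 (-1.86) were lower as well. Hoxa2 had 1 UMI in the collecting duct and 138 in nephron epithelium, a ratio of 0.0638 with a counting interval of 0.0016 to 0.361. Hoxd10 (0.28, SE 0.30) and Hoxd11 (-0.70, SE 0.87) did not pass the test, nor did Hoxa11, Hoxc10 and Hoxc11, with 0 or 1 UMI in the collecting duct. All 17 calls held under every alternative in which the gene was tested. The median log2 fold change was 0.28 over the 23 Hox genes and -0.14 over all genes.

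In interstitial cells, set against the same nephron epithelium, 10 of 23 Hox genes were called, 7 higher and 3 lower, where 28.9% of all genes were called, 12.0% higher and 16.9% lower. Hoxd11 had a log2 fold change of 7.29 (SE 0.44, adjusted p = 1.8e-59) and Hoxa11 of 5.92 (SE 0.95). Hoxd10 (2.12), Hoxd9 (1.93), Hoxc5 (1.83), Hoxc4 (1.58) and Hoxa10 (1.35) were higher too. Hoxa7 (-1.20), Hoxb4 (-1.34) and Hoxb8, with 3 UMIs in interstitial cells and a ratio of 0.28 (counting interval 0.0577 to 0.82), were lower. The higher genes came from the Hoxa, Hoxc and Hoxd clusters, and 5 of the 7 were of paralog group 9 or above. Hoxa9, Hoxb9, Hoxc10 and Hoxc11, also of these groups, were tested and not called. Without TMM, edgeR's correction for composition, 8 Hox genes were called, 7 of them higher (87.5%), and with DESeq2 7, all higher (100%). Hoxd11, Hoxa10 and Hoxc5 kept their calls under every alternative, and those of Hoxa7 and Hoxb4 were also lost without control 1. The Hox median was -0.55 as fitted and -0.19 with genes at 0 set at their bound, against -0.58 over all genes.

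In endothelial cells 10 of 23 Hox genes were called, 1 higher and 9 lower, where 44.6% of all genes were called, 19.0% higher and 25.6% lower. Hoxb5 stood at 40.3, 41.2, 34.3 and 40.5 CPM in endothelial cells and at 18.4, 23.4, 14.0 and 19.8 in nephron epithelium, a log2 fold change of 0.87 (SE 0.23, adjusted p = 0.000405). Hoxc5 (-2.32), Hoxc4 (-1.96), Hoxd10 (-1.57), Hoxb9 (-1.54), Hoxa9 (-1.23), Hoxb8 (-0.84), Hoxa10 (-0.65) and Hoxb6 (-0.52) were lower. Hoxa2 had no UMI in endothelial cells, at least 1.53-fold lower than in nephron epithelium. Without TMM 6 genes were called and with DESeq2 5, and the calls of Hoxa9 and Hoxc5 held under every alternative. Hoxd10 and Hoxa10 lost theirs without control 2 or either knockout mouse, Hoxb6 without control 2 or knockout 2, Hoxb8 without knockout 1 and Hoxa2 without control 1. The Hox median was -0.52 as fitted and -0.12 with bounds, against -0.35 over all genes.

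The scaling moved the median of all genes. It was -0.14, -0.58 and -0.35 for collecting duct, interstitium and endothelium with TMM, 0.10, -0.23 and -0.16 without it, and -0.04, 0.33 and 0.03 with DESeq2. In endothelial cells Hoxb6 and Hoxa10 lay close to the median of all genes, and Hoxb9, Hoxc4 and Hoxc5 lay more than 1 below it.

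**Figure D4:**
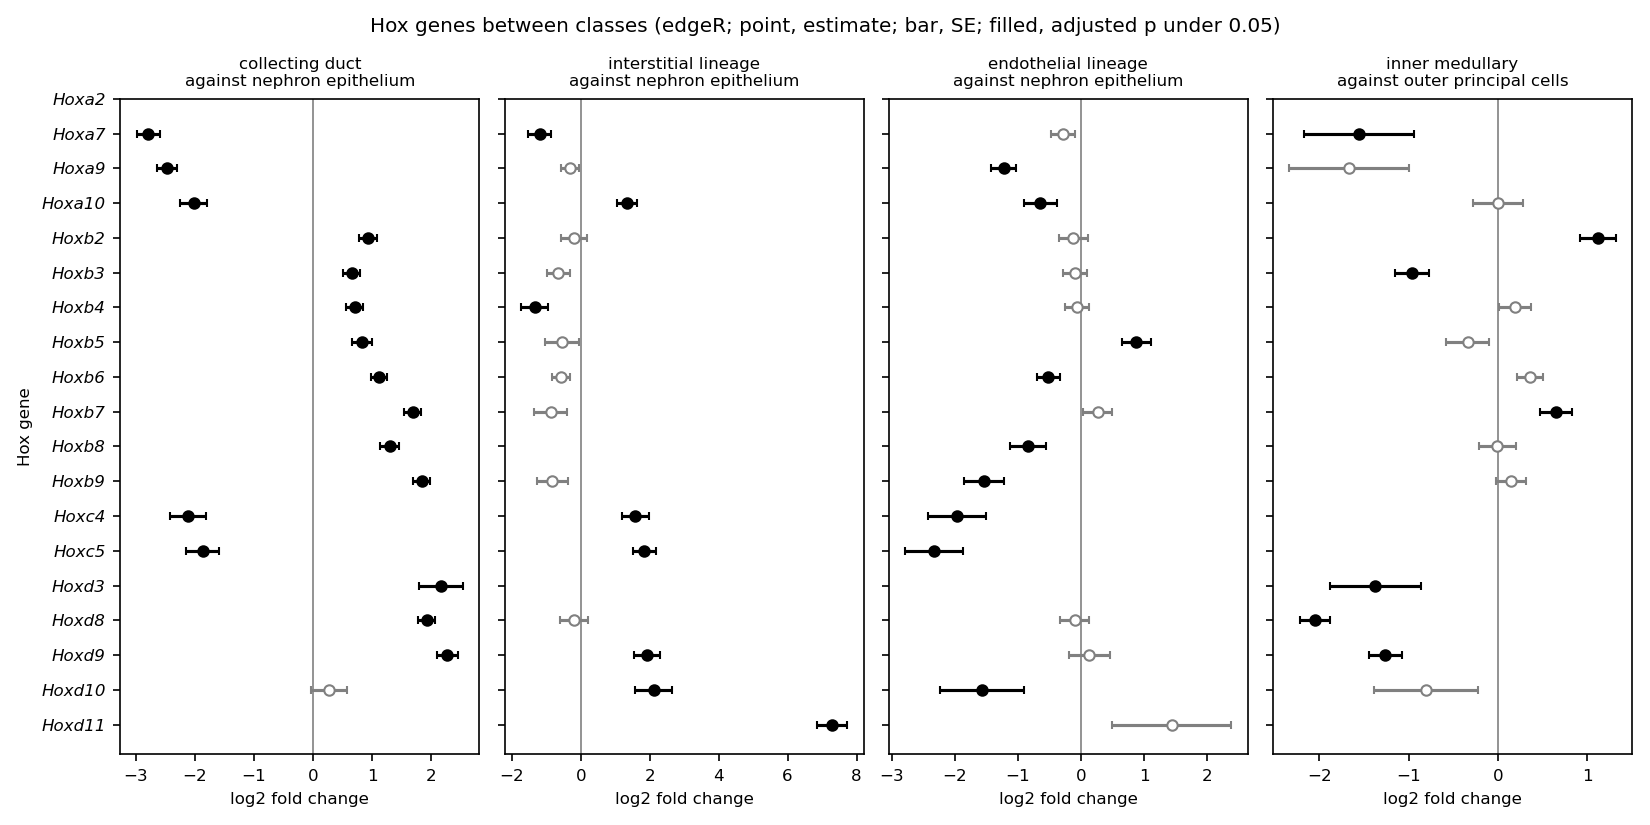
Log2 fold change (horizontal axis; point, estimate; bar, SE; edgeR) of Hox genes in 4 comparisons, with filled points at an adjusted p under 0.05; genes with 3 or fewer UMIs on a side are left out. Hoxb and Hoxd genes lie right of 0 and Hoxa and Hoxc genes left of it in the collecting duct, from 2.27 for Hoxd9 to -2.79 for Hoxa7.

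Principal cells fell into 2 clusters. A position marker was counted for a cluster when its level, with 10 CPM added, was at least 2-fold that in the other cluster. The inner one, 726 nuclei, was thus higher in 6 of 8 inner medullary markers and 0 of 7 cortical and outer medullary markers. The outer one, 574 nuclei, was higher in 0 of 8 and 7 of 7. A 0 here does not mean that the markers were absent. The summed Hox level was 994 in inner and 1215 in outer cells. Of 15 Hox genes tested, 7 were called, 2 higher in inner cells and 5 lower, where 33.8% of 13551 genes were called, 17.2% higher and 16.6% lower. Hoxd8 stood at 51.1, 69.5, 56.6 and 54.2 CPM in inner and at 227, 216, 320 and 249 in outer cells, a log2 fold change of -2.05 (SE 0.17, adjusted p = 9.6e-12, edgeR). Hoxd9 stood at 48.2, 39.6, 46.3 and 40.2 against 125, 95.5, 107 and 102, which is -1.26 on the log2 scale (SE 0.19). Neither gene overlapped between the clusters.

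Hoxd3 (-1.37), Hoxa7 (-1.56) and Hoxb3 (-0.96) were lower in inner cells too. Hoxa7 had means of 3.38 and 11.8 CPM, and its adjusted p of 0.0496 was just inside the threshold, while that of Hoxa9 (-1.66), 0.0549, was just outside. Hoxb2 stood at 92.7, 101, 113 and 106 in inner and 52.9, 54.4, 38.0 and 44.96 in outer cells, a log2 fold change of 1.12 (SE 0.20). Hoxb7 stood at 123, 146, 110 and 108 in inner and 71.6, 74.3, 100.5 and 77.7 in outer cells, a log2 fold change of 0.65 (SE 0.18, adjusted p = 0.00482, edgeR). That call was lost with DESeq2, with nuclei under 1% mitochondrial UMIs and without control 2, and its adjusted p ran from 0.00122 to 0.0993 over 12 alternatives by edgeR and DESeq2. The calls of Hoxa7 and Hoxd3 were lost without any 1 of the 4 mice, while those of Hoxd8, Hoxd9, Hoxb3 and Hoxb2 held under every alternative. The Hox median was -0.34, against 0.03 over all genes.

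Genes that act with the Hox clusters were read from lists. The TALE cofactors are homeodomain partners that bind DNA together with Hox proteins, and 9 were measured. The counts of these lists are to be read against the shares of all genes called, 51.6% in the collecting duct, 28.9% in interstitial cells, 44.6% in endothelial cells and 33.8% between inner and outer principal cells. In the collecting duct 1 was higher, Pbx2 (0.63), and 3 were lower, Meis1 (-3.48), Pknox2 (-4.71) and Pknox1 (-1.08), which is 4 of 9 and near the share of all genes. Pknox2 had only 1 UMI in the collecting duct and 211 in nephron epithelium, so the size of its change is uncertain. In interstitial cells 5 were higher and 0 lower, among them Meis2 at 6.57, Meis1 at 5.73, Pknox2 at 4.53 and Meis3 at 3.67. Meis3 rested on 3 UMIs in interstitial cells, with 0 in control 2 and in knockout 1. In endothelial cells 3 were higher, among them Meis2 (8.69) and Meis1 (3.69), and 1 was lower. Meis1 thus stood at 681 ± 18.1 CPM in interstitial cells and 1.22 ± 1.28 in principal cells (SD, n = 4), with no overlap. Between inner and outer principal cells 1 of 6 was higher and 2 were lower.

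Of the non-coding genes inside the clusters, 6 were measured and all 6 were called in the collecting duct, where 51.6% of all genes were, each in the direction of its neighbours but for Hoxb3os. Hoxd3os1 (1.69) and Hoxb5os (0.98) were higher, and Hoxaas3 (-2.71), Halr1 (-3.29) and Hotairm1 (-1.47), which lie in or beside the Hoxa cluster, were lower, as was Hoxb3os (-1.18). In interstitial cells 0 were higher and 2 lower, and in endothelial cells 0 and 3. In inner against outer principal cells, Hoxb3os was higher (1.51) and Hoxd3os1 lower (-1.32) among 5 measured. Antisense genes overlap their hosts, and the strand used in counting was not given in the sources used here.

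Chromatin and retinoic acid regulators of the clusters were called in the collecting duct in 5 of 13 cases, against 51.6% of all genes. Of these, 2 were higher in the collecting duct, the retinoic acid receptors Rarg (1.67) and Rarb (0.53), and 3 were lower, Kdm6a (-0.46), Kdm6b (-0.45) and Kmt2d (-0.43), which encode enzymes that act on histone methylation. In interstitial cells 3 were higher and 1 lower, in endothelial cells 3 and 3, and in inner principal cells 1 of 11 was higher, Rarb (2.42), and 3 lower. Of 12 partners in kidney development, 6 were higher in the collecting duct and 4 lower, where 24.6% and 27.0% of all genes were. Gata3 (5.68) and Wnt9b (5.79), a transcription factor and a ligand of the ureteric lineage, and Ret (4.57), the receptor through which the bud is drawn out, were higher, while Gfra1 (-1.90), its coreceptor, and Sall1 (-2.89) were lower. Gata3 was also 1 of the 9 markers used to name principal cells, so its call, counted among the 6, is not independent of the naming. In interstitial cells 3 were higher and 6 lower, in endothelial cells 1 and 6, and in inner principal cells 2 of 9 and 3.

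Knockout and control mice were compared in each class with UMIs summed per mouse. Over the 12 classes, 165 pairs of a Hox gene and a class were tested, 0 to 21 Hox genes per class, and edgeR's quasi-likelihood test called 0 of them, as did DESeq2. Across all genes 0 to 3 were called per class: 0.00563% in the proximal tubule, 0.00678% in the thick ascending limb, 0.0257% in endothelial cells and 0% in the other 9 classes, with 0.0177% in outer and 0.00806% in inner principal cells taken apart. At an unadjusted p under 0.05 there were 4 of the 165 pairs, 2.42%, against 2.94% of all pairs of a gene and a class. A count of 0 does not show that the levels were alike. With 2 mice per group an exact permutation test of 1 value cannot go below 0.333.

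The 4 pairs were Hoxb9 in the proximal tubule, Hoxd10 in the connecting tubule, Hoxb5 in pelvic epithelium and Hoxc5 in interstitial cells, and all were lower in knockout mice. Hoxb9 stood at 10.6 and 14.1 CPM in control and 7.27 and 8.37 in knockout proximal tubule, a log2 fold change of -0.67 (SE 0.23, adjusted p = 0.999 by edgeR). Within this class it was uneven, at 29.6 in cluster 2 and 1.57 to 7.10 in clusters 1, 3, 4 and 5. Cluster 2 held 877 of 4073, 693 of 1956, 776 of 4407 and 780 of 3367 proximal tubule nuclei in the 4 mice. The part of this mix in the Hoxb9 values was not tested. Hoxd10 stood at 60.9 and 54.6 against 34.9 and 30.7 in the connecting tubule (-0.81, SE 0.34). Hoxb5 stood at 58.4 and 38.3 against 7.25 and 12.4 in pelvic epithelium, from 15, 17, 1 and 2 UMIs (-2.12, adjusted p = 0.934). Hoxc5 in interstitial cells stood at 90.5 and 102 against 10.5 and 55.9 (-1.65). In each the groups did not overlap, and none passed the correction. Over the 165 pairs the log2 fold change ran from -2.12 to 1.71, with a median of -0.06, and 69 were higher in knockout mice.

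**Figure D5:**
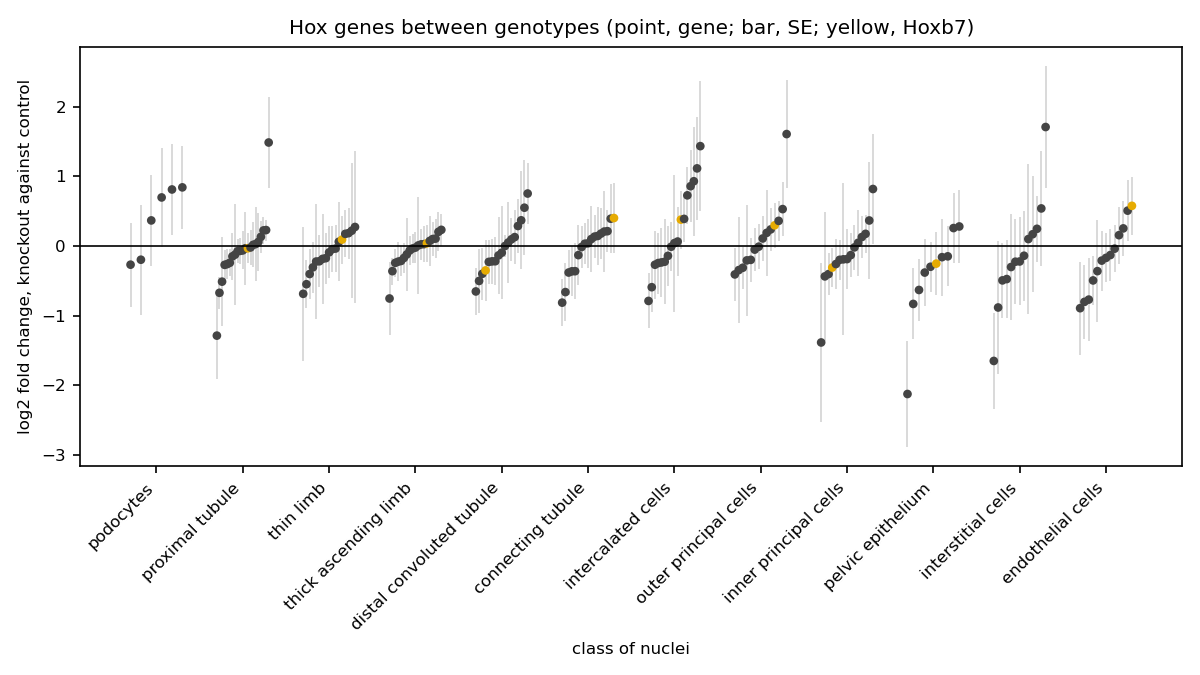
Log2 fold change between knockout and control mice (vertical axis; point, 1 Hox gene; bar, SE; yellow, Hoxb7) in each class, with principal cells shown as their 2 clusters and immune nuclei left out, where no Hox gene was tested. Values run from -2.12 to 1.71 around 0 and none was called.

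Hoxb7 in principal cells, 111 and 117 CPM in control and 106 and 98.3 in knockout mice, had a log2 fold change of -0.17 (SE 0.26, adjusted p = 1 by edgeR). It was 0.30 (SE 0.32) in outer and -0.31 (SE 0.28) in inner cells. The difference between these effects, tested as an interaction after their signs were seen, was -0.60 (SE 0.39, adjusted p = 1 by edgeR), and 0.0443% of 13551 genes were called in that test. Whether any transcript of the transgene was counted as Hoxb7 was not tested.

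Whether the genotype effect differed between collecting duct and nephron epithelium was tested as an interaction over 19444 genes. Of 23 Hox genes 0 were called by edgeR and 0 by DESeq2, where 0.427% of all genes were called by edgeR, and 3 had an unadjusted p under 0.05, as had 5.44% of all genes. Hoxa9 had the lowest adjusted p, 0.236, with a difference of 0.99 (SE 0.33), and its collecting duct values, 14.7 and 10.7 against 27.1 and 20.2, did not overlap. The mix of cells moved with this: next to 341 and 482 principal cells in control mice and 272 and 205 in knockout mice there were 179, 155, 172 and 154 intercalated cells, in which Hoxa9 is higher. In principal cells alone the Hoxa9 values of the genotypes overlapped (5.80 and 5.29 against 3.88 and 6.73), and in intercalated cells they did not (41.1 and 33.9 against 76.9 and 45.5), with a log2 fold change of 0.73 (SE 0.41, adjusted p = 0.999 by edgeR). The part of the cell mix in the interaction was not tested. Hoxc5 (1.54) and Hoxd10 (1.42) were the other two. Of the listed genes, 0 of 375 pairs with a class were called between genotypes, and in the interaction 1 was, Gfra1, a partner in kidney development, at 1.42 (SE 0.32, adjusted p = 0.00385 by edgeR).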

How the data were processed

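Nuclei from kidney tissue, enriched for medulla, of 4 mice, 1 library each, were sequenced with the 10x Genomics 3' v3.1 kit. The authors made the deposited UMI counts per gene and barcode with Cell Ranger 3.0.2 against mm10, per the labels, and the files list every barcode. The processing notes also name Seurat. Of the 10000 barcodes with most UMIs per library, those were kept that had 500 to 4000 genes and a mitochondrial share under 5%. Integration and clustering used Seurat 5.3.0 (30 dimensions, resolution 0.5), after 51 rows of the Hox clusters were left out, and clusters were named from marker lists. Called doublets were kept and left out in an alternative. The members, lists and tests were chosen with earlier results of these data known. All 39 members enter the counts, some single results are not reported here, and members with at least 100 UMIs, Hoxb7 and called members were named, with values per mouse in the classes or lineages described and otherwise a mean, a count or a fold change. The 4 lists held TALE cofactors, non-coding and flanking genes of the clusters, chromatin and retinoic acid regulators, and partners in kidney development.

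UMIs were summed per mouse and class or lineage and tested with edgeR 4.0.16 (quasi-likelihood test, TMM, at least 10 UMIs per gene over the sums, Benjamini-Hochberg adjustment over all genes tested, R 4.3.3). The test was checked on simulated counts, in which it missed most of the smaller changes between genotypes and made some false calls. Replicates were separate mice. DESeq2 1.42.0 and the other alternatives are given with their effect in the closing section. Counting intervals are at 95% and cover counting error only, and a count of 0 was set at a floor of 3 UMIs over the group. The share of UMIs from free RNA, estimated from the barcodes under 100 UMIs, ran from 0% to 28.9% per mouse and class. Control and knockout shared replicate numbers, but no label tied a number to a litter or day.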

Additional observations from a re-analysis of the deposited data

Results flagged for a closer look

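Hox genes were also counted in 7 clusters that stayed outside the 12 classes and took no part in any comparison. They were picked out as data outside the main measurement. The summed Hox levels, in CPM with a 95% Wilson interval for counting error, were 315 (282 to 351) in cluster 8 and 1081 (945 to 1236) in cluster 22, both with the marks of damaged nuclei. The clusters with markers of more than 1 class, 15, 16 and 26, gave 472.9 (433 to 516), 599.4 (561 to 641) and 1625 (1340 to 1970). Clusters 19 and 21 held 7 of 9 proximal tubule and 3 of 7 thin limb markers but stayed unnamed, since a marker of another class stood among their leading 10 genes and none of their own. They gave 1030 (961 to 1103) and 1293 (1193 to 1401). In cluster 19 that other marker was Slc14a2, of the thin limb list, and several leading genes were shared with the thin limb. At resolution 0.8 a cluster of 199 nuclei with similar leading genes was named thin limb, from 4 of 7 markers. The summed Hox level of the thin limb was then 1410. Free RNA, at 573 CPM, lay above clusters 8 and 15 and within the interval of cluster 16. The groups of 2 mice were too small to test for a mouse far from the others, and neither interaction test called a Hox gene.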

How the results depend on the processing

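Of 297 checks of the main results, 289 stayed the same, with counts kept within 1.5 times their reported value. The checks also took in Hoxb7 in principal cells between genotypes and the order of classes. For the order, the count was of pairs of classes ranked as in the main values. A limit of 1.5 times is wide for such a count, so the checks of the order could hardly fail. Most, 205, were fits between genotypes, where the reported count was 0 and so was every alternative. Comparisons between lineages and principal cell clusters, which had calls, were a smaller part, and all exceptions fell there. The exceptions were the interstitium with nuclei under 1% mitochondrial UMIs (5 called, against 10), the endothelium with DESeq2 (5), without TMM (6), under 1% mitochondrial UMIs (3) and in control mice only (6), against 10, and inner against outer principal cells with DESeq2 (4), under 1% mitochondrial UMIs (4) and without control 2 (4), against 7. The cause was not tested, beyond fewer nuclei under the mitochondrial limit and fewer mice in the last. Leaving out 1 mouse at a time gave 17 to 18 calls in the collecting duct, 8 to 13 in the interstitium, 7 to 9 in the endothelium and 4 to 6 between the principal cell clusters. No call reversed its direction; of the checks of single Hox genes, 600 stayed on their side of the threshold and 67 lost a call, and all 17 calls in the collecting duct, 3 of 10 in the interstitium, 2 of 10 in the endothelium and 4 of 7 between the principal cell clusters held throughout. The replicate block, a term for the shared replicate number, called 0 Hox genes between genotypes in any class and left Hoxb7 in principal cells at -0.17; the numbers deviated together with correlations of 0.0374 to 0.329, with only 2 pairs. Of 205 alternative fits between genotypes, 0 called a Hox gene, and the lowest adjusted p was 0.466 by edgeR or DESeq2. Immune nuclei under 1% mitochondrial UMIs could not be fitted, since a mouse had none. Depth limits the interstitium, podocytes and immune nuclei most, with 242, 114 and 105 nuclei.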
